A study of Mus musculus with 22 samples.

Results

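Macrophage-like cells made up 213 of the 30353 cells with a total count of 50 or more in 22 sections through the aorta-gonad-mesonephros region of E10 mouse embryos, or 213 of all 37575 segmented cells. A cell was taken as macrophage-like when the summed count of *C1qa*, *C1qb*, *C1qc*, *Csf1r*, *Cd68* and *Mrc1* was at least 5 and made up at least 15 of every 1000 counts of the cell. These 6 genes chose the cells, so their own levels are a description and not a finding. The sections, each 10 µm thick, were fresh frozen and imaged with CosMx, in which barcoded probes for a panel of genes are read *in situ* and each transcript is assigned to a segmented cell. The tables held counts of 998 genes.

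13 sections came from 1 embryo labelled Knockout (*Nr4a1*-/-*Nr4a2*-/-, dKO), which lacks both NR4A nuclear receptors under study, and 9 from 1 embryo labelled Wildtype (*Nr4a1*+/+*Nr4a2*+/+, WT). Both embryos were of the same stage. Sections of a genotype repeat the measurement of 1 embryo, so each p-value for dKO against WT compares 2 embryos and measures the spread between sections only. The tests of macrophage-like against other cells and of left-out markers also take sections of these 2 embryos as repeats. Their p-values do not cover the spread between embryos. Within each genotype the tables carry a number, 1 or 2, that may stand for a slide. By the study's methods each slide held sections of a single genotype, so tables of dKO and WT with the same number share only that number, and slide and embryo cannot be told apart.

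Totals per section lay between 169038 and 887904 counts in dKO (median 366514) and between 211614 and 820265 in WT (median 406900). *Nr4a1* gave 2.24 ± 0.25 counts per 10000 (SD, n = 13 sections) in dKO and 2.77 ± 0.27 (SD, n = 9) in WT. *Nr4a2* gave 4.17 ± 0.62 in dKO and 4.89 ± 0.83 in WT. After TMM scaling neither differed beyond the spread between sections (log2 change -0.05 and 0.03, adjusted p = 0.72 and 0.86, edgeR), whereas with library size alone both were lower in dKO (-0.31 and -0.23, adjusted p = 0.0011 and 0.033, edgeR). Whether the probes lie in the deleted sequence is not given in the sources used here. The counts therefore do not check the genotype labels, and each direction below is that of the sections labelled dKO or WT. Cell names recur between tables, in 6 pairs of tables and 3410 names, but 0 of these had equal counts of all genes.

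Macrophages of the early embryo arise mostly from yolk sac progenitors, spread through the tissues with the circulation, and engulf dying cells and debris. C1q, whose 3 chains are encoded by *C1qa*, *C1qb* and *C1qc*, starts the classical complement cascade and tags dying cells for uptake. *Csf1r* encodes the receptor for the growth factors CSF1 and IL-34, on which most tissue macrophages depend. *Cd68* encodes a glycoprotein of the lysosomal membrane, and *Mrc1* the mannose receptor, an endocytic receptor that some endothelial cells also carry.

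The reference promoters of these genes are shown because the summed counts of the genes chose the cells. RefSeq sequence (GRCm38.p6) of the 250 bases before the start was at hand for 4 of the 6 rule genes, and each is written 5′ to 3′ on the strand of its gene. Capitals mark GAGGAA or its reverse complement TTCCTC, the core of the sites bound by the myeloid factor PU.1.
*C1qb* (chr4:136886201-136886450, minus strand): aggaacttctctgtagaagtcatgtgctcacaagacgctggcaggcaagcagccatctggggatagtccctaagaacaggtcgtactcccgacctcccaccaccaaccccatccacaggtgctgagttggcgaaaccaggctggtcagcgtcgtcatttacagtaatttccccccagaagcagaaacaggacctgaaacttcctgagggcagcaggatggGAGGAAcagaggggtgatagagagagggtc
*C1qc* (chr4:136892915-136893164, minus strand): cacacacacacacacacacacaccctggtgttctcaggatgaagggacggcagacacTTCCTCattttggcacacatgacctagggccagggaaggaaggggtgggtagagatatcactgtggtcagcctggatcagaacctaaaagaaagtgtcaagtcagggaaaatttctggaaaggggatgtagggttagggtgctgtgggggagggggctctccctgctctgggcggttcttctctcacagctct
*Cd68* (chr11:69666171-69666420, minus strand): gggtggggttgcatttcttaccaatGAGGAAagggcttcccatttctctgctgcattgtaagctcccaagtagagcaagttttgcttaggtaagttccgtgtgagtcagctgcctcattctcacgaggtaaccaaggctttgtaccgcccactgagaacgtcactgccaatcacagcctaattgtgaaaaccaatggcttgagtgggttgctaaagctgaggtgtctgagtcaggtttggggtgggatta
*Mrc1* (chr2:14229164-14229413, plus strand): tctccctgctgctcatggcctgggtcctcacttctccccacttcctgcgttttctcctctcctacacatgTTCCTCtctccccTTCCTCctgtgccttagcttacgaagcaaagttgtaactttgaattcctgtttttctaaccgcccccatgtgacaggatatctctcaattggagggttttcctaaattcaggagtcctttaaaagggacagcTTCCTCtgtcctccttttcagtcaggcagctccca
The letters occurred once in the windows of *C1qb*, *C1qc* and *Cd68* and 3 times in that of *Mrc1*. Of all 32851 windows of this length in the table, 23.3% held them on either strand, so a match describes the letters of a window and is no evidence of a bound site.

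More cells met the rule than independent counts would give. If every transcript in a section had the same chance of being a marker transcript, 21.9 cells would have met both limits, against the 213 observed, a ratio of 9.71 (95% interval 8.45 to 11.1 from the exact Poisson interval of the observed number, which covers counting error only). The surplus lay in the high counts. A summed marker count of at least 8 was found in 149 cells where 25.8 were expected, at least 10 in 44 cells against 3.18, and at least 12 in 17 cells against 0.374. The observed distribution was also wider than the expected one at its low end, with 16410 cells without a marker count against 13819 expected and 6411 cells with 1 count against 8882. In dKO the sections held 83 macrophage-like cells where 5.87 were expected, and in WT 130 where 16.1 were expected. The observed number exceeded the expected one in 13 of 13 dKO and 9 of 9 WT sections.

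**Figure D1:**
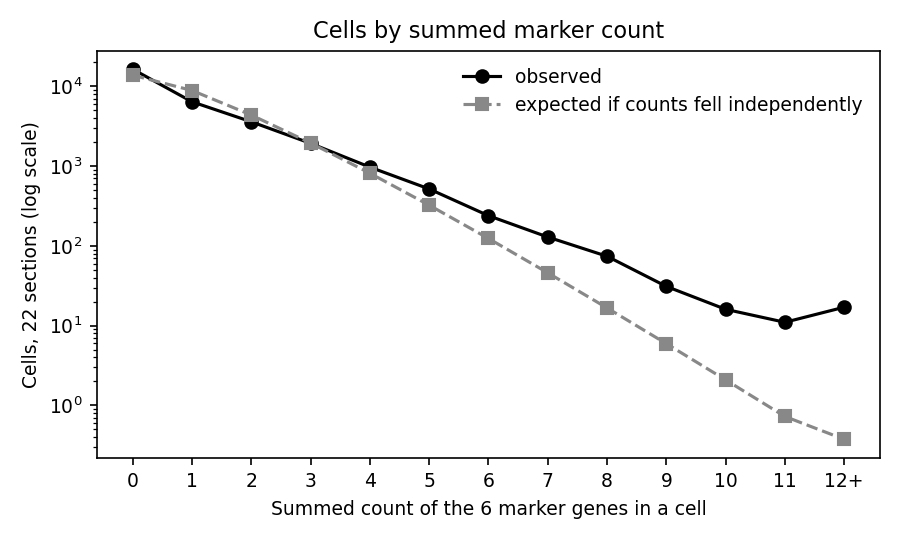
Number of cells with a total count of 50 or more in all 22 sections (y axis, log scale) by the summed count of the 6 marker genes (x axis, with 12 and more in the last point). Black circles are observed cells and grey squares the number expected if marker counts fell independently at the rate of each section. The curves cross near 3 counts and part beyond 5, where 17 cells stand against 0.374 expected at 12 or more.

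The surplus held cells with several rule genes and cells with few. Among the macrophage-like cells 11 carried 1 rule gene, 63 carried 2, 78 carried 3, 42 carried 4, 15 carried 5 and 4 carried all 6. With the 6 genes independent of each other, 0.0211, 1.14, 7.32, 10.1, 3.56 and 0.354 cells were expected in turn. Hence the ratio of observed to expected was lower for the 139 cells with at least 3 rule genes, at 6.51, than for the whole. Of the 11 cells with a single rule gene, 8 carried *C1qb* and 3 carried *C1qc*. In all 210 of the 213 cells had a count of at least 1 C1q gene, 32 had all 3, and 99 (46.5%) had a C1q gene together with *Csf1r*.

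Most of the macrophage-like cells sat near the limits of the rule. Their summed marker count had a median of 6 and reached 30, and their marker share had a median of 19.5 per 1000 and reached 82.0. At the limit of the sum, 77 cells had exactly 5 counts, and 99 cells outside the rule had 4 counts at a sufficient share. The lowest share inside was 15.02 per 1000 and the highest outside, among cells with at least 5 counts, 14.98 per 1000. In all 821 cells had at least 5 marker counts at a share below the limit. The total count of the macrophage-like cells had a median of 310, against 267 in all cells of 50 or more.

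*C1qb* contributed most. It gave 6.54 counts per 1000 in macrophage-like cells and 0.703 in all cells outside the rule, 31.4% of the summed marker counts in the former and 24.0% in the latter. *C1qa* gave 3.498 against 0.505 per 1000, *C1qc* 3.07 against 0.348, and *Mrc1* 2.92 against 0.413. *Csf1r* gave 2.56 against 0.487 and *Cd68* 2.25 against 0.476, the smallest contrasts, at 5.25-fold and 4.74-fold. A count of *C1qa* was seen in 52.1% of macrophage-like cells. It was also seen in 13.2% of 1122 endothelial-gated cells, a set outside the rule chosen by *Cdh5*, *Pecam1*, *Tie1*, *Esam* and *Clec14a* with the same limits of 5 counts and 15 per 1000, at a median total count of 382. *Mrc1* was seen in 39.9% of macrophage-like cells and 13.9% of endothelial-gated cells. Per 1000 counts the endothelial-gated cells held 0.416 counts of *Mrc1*, close to the 0.413 of all cells outside the rule. Hematopoietic-gated cells, chosen by the erythroid and myeloid cytokine receptor genes *Epor* and *Csf2rb* with a sum of at least 3, numbered 50 and held 0.844 counts of *C1qa* and 0.281 of *Csf1r* per 1000.

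The cells with the highest summed counts show what the rule selects at its clearest. The highest was in dKO section 8, with a total count of 1185, and held 2 counts of *C1qa*, 4 of *C1qb*, 9 of *C1qc*, 5 of *Csf1r*, 2 of *Cd68* and 8 of *Mrc1*. That cell also held 6 counts of *Cx3cr1*, the receptor for fractalkine, and 4 of *Ptprc*, the leukocyte common antigen. A cell of dKO section 12 with a summed marker count of 27 owed 14 of them to *Mrc1* and had no count of *Csf1r*, *Cd68* or *Cx3cr1*. A cell of dKO section 6 held 9 counts of *C1qa* and 9 of *Cx3cr1* with 6 of *Tyrobp*, the signalling adaptor of myeloid receptors. The highest summed count in WT was 18, in 2 cells. The cell of section 15 held 4 counts each of *Csf1r* and *Cx3cr1* and 5 of *Fcer1g*, whereas that of section 19 held none of *Csf1r*, 1 of *Cx3cr1* and none of *Fcer1g*.

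Each rule gene was then read in cells chosen by the other 5 at the same limits, so that the gene read had no part in the choice. 5 of the 6 genes were higher in the chosen cells than in the other cells of the same section. *C1qb* was read in 7 sections with at least 5 chosen cells and gave 2.91 ± 1.57 counts per 1000 (SD) in these and 0.757 ± 0.155 in the others. It was higher in 7 of 7 sections (exact two-sided sign-flip permutation p = 0.0156, the smallest that 7 sections allow, adjusted p = 0.0187). *C1qc* gave 1.505 ± 1.219 against 0.381 ± 0.095 and was higher in 14 of 16 sections (permutation test, adjusted p = 0.0024). *Csf1r* gave 1.25 ± 0.76 against 0.522 ± 0.108, higher in 14 of 16 (adjusted p = 0.0024 by the permutation test). *Mrc1* gave 2.24 ± 2.60 against 0.451 ± 0.094, higher in 12 of 17 (adjusted p = 0.0053, permutation test), and its large SD came with dKO section 12, at 10.7 counts per 1000, where the other sections lay between 0 and 4.40. *C1qa* gave 1.38 ± 1.06 against 0.574 ± 0.115, higher in 12 of 14 (adjusted p = 0.0159, permutation test).

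*Cd68* was the exception. It gave 0.614 ± 0.691 counts per 1000 in cells chosen by the other 5 and 0.504 ± 0.108 in the others, and was higher in 6 of 16 sections (permutation p = 0.54, adjusted p = 0.54). The p-values were adjusted over the 6 genes. In chosen cells pooled by embryo, the left-out gene stood between 1.85-fold (*Cd68*) and 7.72-fold (*Mrc1*) above the other cells in dKO, and between 1.28-fold (*Cd68*) and 3.20-fold (*C1qb*) in WT. The ratio was the higher in dKO for all 6 genes, a difference that was not tested. For *Mrc1* in dKO it rests on 63 counts in 61 cells. Single cells of dKO sections 12 and 8 held 14 and 8 counts of *Mrc1*.

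**Figure D2:**
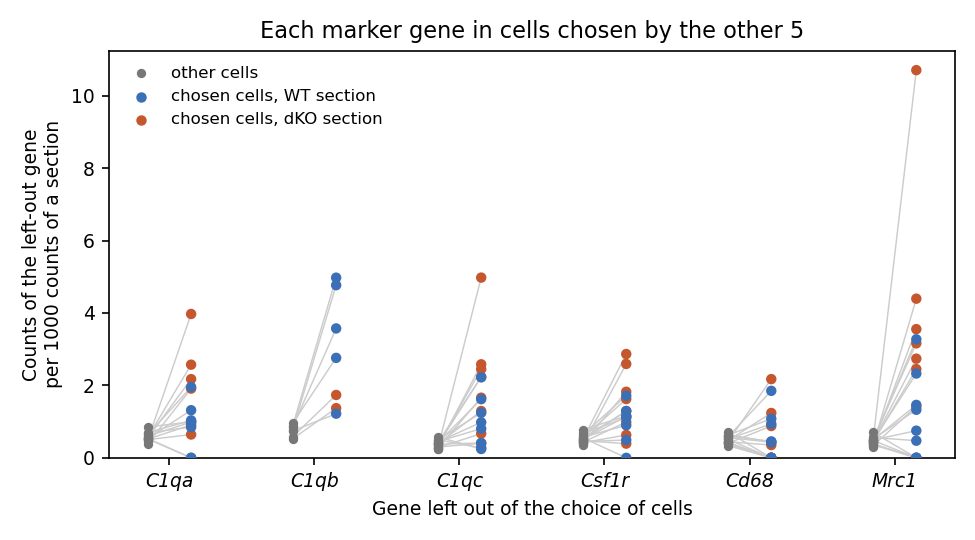
Counts of each marker gene per 1000 counts of a section (y axis) in cells chosen by the other 5 genes (coloured by embryo) and in the other cells of the same section (grey), with lines joining the same section; sections had at least 5 chosen cells. *C1qb* was higher in 7 of 7 sections, whereas *Cd68* was higher in 6 of 16.

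Genes outside the rule were compared between macrophage-like and all other cells within sections, with the counts of each class summed per section and the 6 rule genes removed. In the 10 sections with at least 10 macrophage-like cells, 2 from dKO and 8 from WT, 1 of 992 genes was higher (0.101%) and 9 were lower (0.907%) at an adjusted p under 0.05 in edgeR's quasi-likelihood test with section as a block. The gene that rose was *Runx3*, which encodes a Runt-family transcription factor, and those that fell included *Col4a1* and *Col4a2*, which encode chains of collagen IV, and *Vim*.

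*Runx3* ranged from 9.21 to 34.0 counts per 10000 in macrophage-like cells of these sections (median 14.2) and from 6.49 to 10.5 in the other cells (median 8.79), and was higher in 10 of 10 sections. The log2 change was 0.85 ± 0.23 (SE, adjusted p = 0.034, edgeR). The call was kept in 4 of the 10 fits that left out a section and lost without dKO section 11 or WT section 14, 15, 16, 18 or 22 (adjusted p up to 0.35, edgeR). In the 19 sections with at least 5 macrophage-like cells the log2 change was 0.66 ± 0.22 and did not pass the threshold (adjusted p = 0.061, edgeR). Over all macrophage-like cells *Runx3* gave 9.02 counts per 10000 in dKO and 19.5 in WT, beside 6.56 and 8.94 in the other cells (pooled, no test). In the 10 dKO sections with at least 5 macrophage-like cells its log2 change was -0.08 ± 0.41.

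Among the 9 genes that fell, *Col4a1* ranged from 11.3 to 65.0 counts per 10000 in macrophage-like cells (median 25.7) and from 29.5 to 67.1 in the others (median 52.7). It fell by 0.95 ± 0.18 on the log2 scale (SE, adjusted p = 0.00034, edgeR) and was lower in 9 of 10 sections. *Col4a2*, its partner chain, fell by 1.02 ± 0.23 (adjusted p = 0.0041, edgeR). *Vim*, the intermediate filament protein of mesenchymal cells, fell by 0.90 ± 0.23 and *Igf2*, a fetal growth factor, by 0.73 ± 0.14. *Cald1* (an actin-binding protein), *Serpinh1* (the collagen chaperone), *Tubb5* (a tubulin), *Rack1* (a ribosomal scaffold) and *Hsp90ab1* (a chaperone) fell by 0.66, 0.50, 0.64, 0.67 and 0.56, with adjusted p-values of 0.023, 0.040, 0.031, 0.034 and 0.014 in edgeR. When a section was left out, *Col4a1*, *Col4a2* and *Igf2* kept the call in 10 of 10 fits, *Vim*, *Cald1* and *Hsp90ab1* in 6, *Tubb5* and *Rack1* in 4 and *Serpinh1* in 2. The ranges of macrophage-like and other cells overlapped for each of these genes.

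In the 19 sections with at least 5 macrophage-like cells, a limit chosen after the first fit was seen, 4 of 992 genes rose (0.403%) and 30 fell (3.02%). The 4 that rose were myeloid or leukocyte genes. *Cx3cr1* ranged from 0 to 35.3 counts per 10000 in macrophage-like cells (median 11.3) and from 4.40 to 7.14 in the others (median 5.85), and was higher in 12 of 19 sections. Its log2 change was 1.06 ± 0.24 (SE, adjusted p = 0.0005, edgeR). *Fcer1g*, the shared signalling chain of Fc receptors, ranged from 0 to 42.4 against 5.07 to 11.7 and was higher in 16 of 19 (log2 change 0.86 ± 0.22, adjusted p = 0.0027, edgeR). *Maf*, a transcription factor of tissue macrophages, changed by 0.83 ± 0.24 and *Cd52*, a small surface glycoprotein of leukocytes, by 0.86 ± 0.26 (adjusted p = 0.025 and 0.035, edgeR). *Cd52* was higher in 17 of 19 sections and *Maf* in 12. In the 10 sections of the first fit these 4 genes had log2 changes of 0.76, 0.64, 0.32 and 0.86, and none passed the threshold. In the 10 dKO sections *Cx3cr1* and *Maf* changed by 1.36 ± 0.35 and 1.15 ± 0.35, both past the threshold, and in the 9 WT sections by 0.51 ± 0.32 and 0.24 ± 0.34, which were not; by the interaction term this difference between embryos did not pass the threshold (adjusted p = 0.59 and 0.58, edgeR).

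Endothelial genes that fell in the 19 sections included *Cd34* (by 1.52 ± 0.37), *Kdr* (by 0.92 ± 0.27) and *Cdh5* (by 0.66 ± 0.21). The summed counts of a list of 12 endothelial genes, without *Cd34*, were nonetheless higher in macrophage-like cells in 10 of 19 sections. Also among the genes that fell were *Fn1*, *Sparc*, *Col18a1*, *Col3a1*, *Sox2* and *Krt18*. Within the embryos 47 genes fell in the 10 dKO sections and 4 in the 9 WT sections, and *Sparc*, for example, fell by 1.77 ± 0.25 in dKO but had -0.27 ± 0.21 in WT (interaction adjusted p = 0.0017, edgeR). Against cells of 5 to under 15 marker counts per 1000 and a summed count of at least 3, edgeR called 0 genes in macrophage-like cells, with 52 of 987 at an unadjusted p under 0.05. In that comparison the log2 change was 0.69 ± 0.29 for *Cx3cr1*, 0.54 ± 0.23 for *Runx3* and -0.71 ± 0.19 for *Col4a1*. For macrophage-like against all other cells in the 10 sections, DESeq2 called 1 gene higher and 2 lower, the fit without the section block 1 and 0, and the fit with library size alone, which moved the median gene by 0.13 on the log2 scale, 1 and 3.

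**Figure D3:**
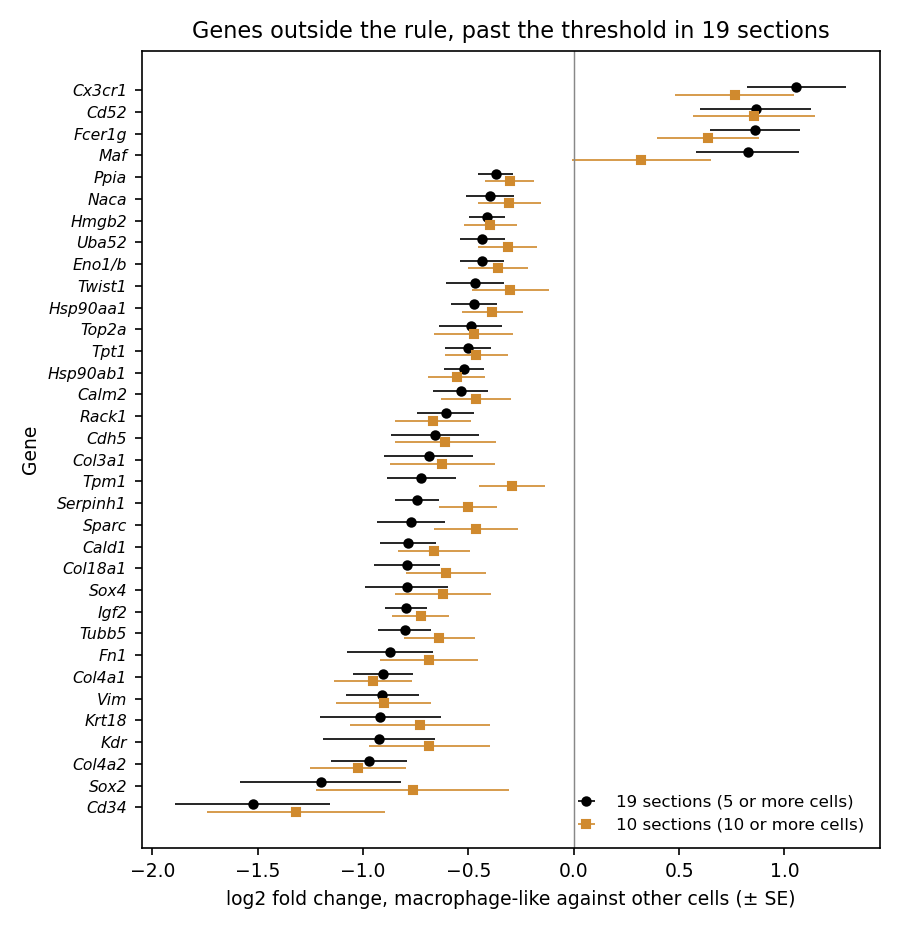
Log2 fold change (x axis, ± SE) of each gene outside the rule that passed the threshold in 19 sections (black), macrophage-like against other cells, beside its value in the 10 sections with at least 10 macrophage-like cells (orange). *Cx3cr1*, *Cd52*, *Fcer1g* and *Maf* lie right of 0 and the other 30 left of it.

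The other macrophage genes of the panel did not move as a body. Of 25 such genes beyond the rule, 3 rose and 0 fell in 19 sections, where 4 of all 992 genes rose (0.403%), and 13 had a positive change, where 377 of 992 did. The median log2 change was 0.02 against -0.09 over all genes tested. Their summed level was higher in macrophage-like than in other cells in 15 of 19 sections, 10 of 10 in dKO and 5 of 9 in WT, at 126 to 238 counts per 10000 (median 168) against 104 to 178 (median 130). *Ptprc* had 0.89 ± 0.29 (adjusted p = 0.061, edgeR) and *Tyrobp* 0.48 ± 0.23 (adjusted p = 0.39, edgeR). *Pf4*, a chemokine gene of megakaryocytes and embryonic macrophages, had -0.51 ± 0.35, and *Cd163*, the haemoglobin scavenger receptor, -0.29 ± 0.30, with adjusted p-values of 0.68 and 0.84 in edgeR. *Cd14*, the lipopolysaccharide co-receptor, and *Mertk*, a receptor for dying cells, had 0.03 and 0.02. These 6 genes were chosen after their values were seen. Of 14 pan-leukocyte genes 1 rose, 11 had a positive change, and the median was 0.28. Their sum was higher in macrophage-like cells in 17 of 19 sections, that of the innate sensing genes in 16, and those of the granulocyte and mast cell genes and of the lymphocyte genes in 12 each (in dKO 7 and 8 of 10 sections). What the transcripts of other blood cells contribute was not tested.

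In 10 sections 1 of all 992 genes rose (0.101%) and 9 fell (0.907%), and in 19 sections 4 (0.403%) and 30 (3.02%) did. At these shares few calls were expected, and none of the other myeloid lists held a gene that passed the threshold in 10 or 19 sections. Their medians in 19 sections were 0.07 for 14 lysosome, lipid and efferocytosis genes, 0.14 for 14 genes of innate sensing, 0.06 for 15 chemokines and inflammatory cytokines and 0.02 for 8 MHC class II genes. For 10 growth factor receptors of the myeloid lineage and their ligands the median was -0.18. In these lists the smallest p-values in 10 sections belonged to *Gas6*, a bridge between dying cells and their receptors (log2 change 0.37 ± 0.32), *Tlr4*, the receptor for lipopolysaccharide (0.47 ± 0.37), *Tnf* (0.38 ± 0.34), *H2-Ab1* (-0.77 ± 0.35) and *Csf3* (-0.91 ± 0.50).

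No gene in the lists for other cell types rose in 10 or 19 sections, where 1 (0.101%) and 4 (0.403%) of all 992 genes did. That 0 is near these shares. Several of the listed genes fell in 19 sections. The 14 granulocyte and mast cell genes had a median log2 change of 0.05 in 19 sections and the 10 lymphocyte genes -0.08, with 0 called in either direction, where 30 of all 992 genes fell (3.02%) and the median of all was -0.09. The summed granulocyte and mast cell genes ranged from 51.0 to 118 counts per 10000 in macrophage-like cells and from 53.8 to 94.8 in the others. Of 12 listed endothelial genes, among which *Cd34* does not count, 2 fell and the median was -0.34. Their sum was higher in macrophage-like cells in 10 of 19 sections (5 of 10 in dKO, 5 of 9 in WT). The medians of this sum were 104.0 counts per 10000 in macrophage-like cells and 105.7 in the others. Of 8 mesenchyme genes 2 fell and the median was -0.45. Of 5 epithelial genes 1 fell, of 12 proliferation genes 2 fell, and of 4 smooth muscle genes and 3 erythroid genes 0 fell. Erythroid transcripts were present throughout, at 18.6 to 527 counts per 10000 in macrophage-like cells (median 132) and 114 to 560 in the others (median 210), and no list had a gene without a count in macrophage-like cells.

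Some transcripts outside the rule were richer in cells that carried more rule genes and others were not, given here as pooled values with no test. The 25 other macrophage genes summed to 131 counts per 10000 in all cells outside the rule and to 156 in cells just outside it, with at least 5 marker counts and 10 to under 15 per 1000. They summed to 147 in macrophage-like cells with 1 or 2 rule genes, 152 in those with 3 and 215 in those with 4 to 6. The pan-leukocyte genes gave 98.2, 117, 113, 128 and 157 in the same order, and the granulocyte and mast cell genes 69.1, 89.4, 71.4, 81.8 and 89.2. The lysosome, lipid and efferocytosis genes gave 122.8, 125.6, 122.3, 131.5 and 180.2. By contrast, from 1 or 2 over 3 to 4 to 6 rule genes, the MHC class II genes gave 59.2, 51.0 and 52.9, the innate sensing genes 94.4, 96.8 and 95.1, and the proliferation genes 592, 522 and 532. All cells outside the rule and those just outside it gave 44.7 and 53.1 for MHC class II, 74.4 and 91.7 for innate sensing and 615.4 and 534.4 for proliferation. *Cx3cr1* gave 5.63 counts per 10000 outside the rule, 7.83 and 8.14 with 1 or 2 and with 3 rule genes, and 21.8 with 4 to 6. *Ptprc* gave 3.61 outside, 4.89 and 4.28 with 1 or 2 and with 3 rule genes, and 13.0 with 4 to 6. *Runx3* went the other way, from 18.6 with 1 or 2 to 10.7 with 4 to 6. So did *Cd163*, at 7.83, 4.71 and 4.44 from fewest to most rule genes, beside 5.63 outside. *Pf4* gave 2.45, 3.43 and 5.18 in the same order, beside 4.36 outside. Among the cells grouped by number of rule genes, the 61 with 4 to 6 held the highest sums of the macrophage, leukocyte and lysosome genes. The 74 cells with 1 or 2 held no more of the other macrophage genes than cells just outside the rule.

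**Figure D4:**
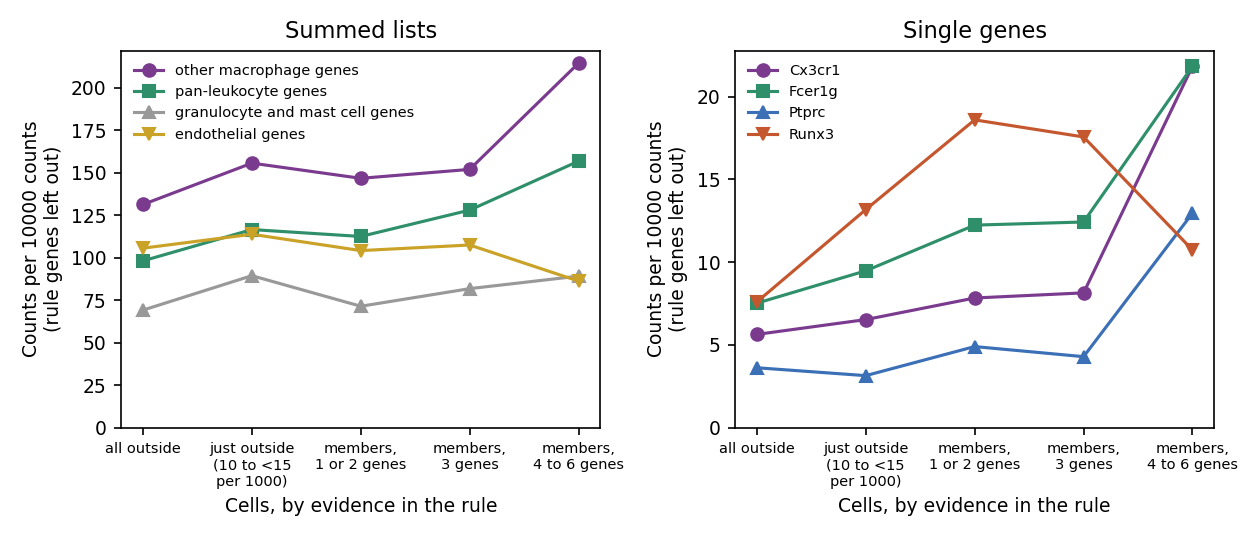
Pooled counts per 10000 counts, with the rule genes left out (y axes), in cells grouped by their evidence in the rule (x axes), for summed gene lists (left) and single genes (right); the points have no error bars. The other macrophage genes rise from 131 in all cells outside the rule to 215 in cells with 4 to 6 rule genes, and *Cx3cr1* from 5.63 to 21.8.

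The share of macrophage-like cells was lower in the sections labelled dKO than in those labelled WT. In dKO it ranged from 0.157% to 0.939% of cells with 50 or more counts (median 0.542%), with 1 to 10 such cells in a section. In WT it ranged from 0.426% to 2.11% (median 1.01%), with 5 to 20 cells. The ranges overlapped. The means were 0.501 ± 0.208% (SD, n = 13) and 1.12 ± 0.57% (SD, n = 9), a difference of -0.616 percentage points (two-sided exact permutation p = 0.00086). With the share expected from independent counts subtracted in each section, the means were 0.464% and 0.975% (exact permutation p = 0.0019). The shares subtracted were small, at means of 0.037% in dKO and 0.143% in WT. The observed counts spread wider than independent ones, so the subtraction does not take out a wider background. The ratio of observed to expected cells ran the other way, at 14.1 in dKO and 8.09 in WT, a difference that was not tested. The difference was -0.906 percentage points among sections with tables numbered 1 (7 dKO and 4 WT, exact permutation p = 0.015) and -0.409 among those numbered 2 (6 and 5, exact permutation p = 0.024).

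The call held with at least 3 rule genes, at means of 0.342% and 0.698% (exact permutation p = 0.0034), but not under higher limits of the sum or the share, nor after scaling. With a summed count of at least 8 the means were 0.166% and 0.239% (exact permutation p = 0.16), and with at least 25 per 1000 they were 0.122% and 0.204% (exact permutation p = 0.27). The rule genes made up 2.77 ± 0.16 of every 1000 counts in all cells of dKO sections and 3.63 ± 0.45 in WT. Over all cells of a section their log2 change in dKO ran from -0.42 (*C1qa*) to -0.33 (*Csf1r*) with library size alone, and each passed the threshold. With TMM, which moved the median gene by 0.27 on the log2 scale, it ran from -0.14 to -0.06 and none passed (adjusted p = 0.24 to 0.65, edgeR). When the share limit of each section was multiplied by its TMM factor, a setting chosen after the data were seen, 98 dKO and 94 WT cells met the rule, at means of 0.572 ± 0.196% and 0.773 ± 0.293% (exact permutation p = 0.067). Fewer macrophage-like cells and fewer marker transcripts per cell cannot be told apart under a limit of this kind.

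**Figure D5:**
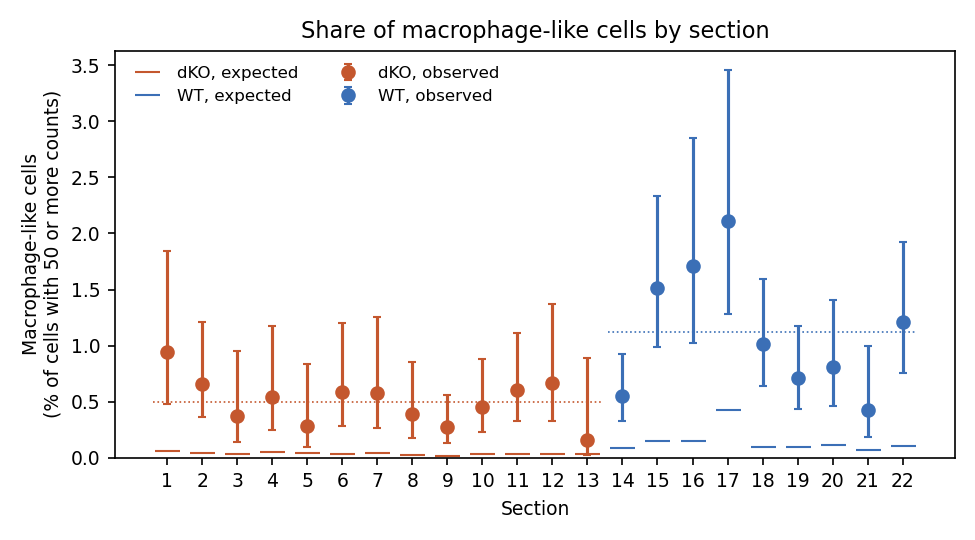
Macrophage-like cells as a percentage of cells with 50 or more counts (y axis) in each section (x axis), with Wilson 95% intervals that cover counting error only; dashes mark the share expected from independent counts and dotted lines the group means. The 13 dKO sections sit between 0.157% and 0.939% and the 9 WT sections between 0.426% and 2.11%, and every section lies above its expected share.

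The make-up of the chosen cells in the 2 embryos is given as pooled values with no test. At least 3 rule genes were found in 67.5% of macrophage-like cells in dKO and 63.8% in WT, the median summed count was 6 in both, and the median total counts were 317 and 310. *Mrc1* gave 3.63 counts per 1000 in dKO and 2.43 in WT, *C1qa* 3.91 and 3.22, and *C1qb* 5.67 and 7.14, while *Csf1r* gave 2.51 and 2.59. Of the genes outside the rule, *Cx3cr1* gave 17.4 counts per 10000 in dKO and 10.5 in WT, beside 5.06 and 6.37 in the other cells. *Maf* gave 16.3 and 8.33, beside 5.43 and 6.18. *Cd163* ran the other way, at 3.82 and 6.67 beside 4.95 and 6.52, and so did *Cd52*, at 8.33 and 11.7 beside 4.14 and 5.60. *Runx3* was also lower in dKO, at 9.02 and 19.5 beside 6.56 and 8.94. The erythroid genes gave 132.6 and 199, beside 236 and 207. The chemokines and inflammatory cytokines gave 87.8 and 110 in macrophage-like cells and, at nearly the same ratio, 76.8 and 96.8 in the other cells.

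Within macrophage-like cells 106 genes were abundant enough to be tested between 2 dKO and 8 WT sections. 0 were higher in dKO (0.0%) and 1 was lower (0.943%), and 8 had an unadjusted p under 0.05 in edgeR. DESeq2 called 0, with 7 at an unadjusted p under 0.05. The lower gene was *Col1a1*, a chain of fibrillar collagen I made by mesenchymal cells, at 6.05 and 6.14 counts per 10000 in the 2 dKO sections and 27.0 to 119 in the WT sections (median 39.3). The groups did not overlap, nor did they for other genes not called in this fit, among them *Eno1/b* and *Hsp90ab1*. In dKO the values rest on few counts, from 10 cells in each section. The log2 change of *Col1a1* was -3.13 ± 0.62 (SE, adjusted p = 9.3e-05, edgeR). DESeq2 gave an adjusted p of 0.053. Without dKO section 2 edgeR gave 0.083, in a fit with 1 dKO section, which is assumed to vary as the WT sections do. Over all cells of the sections *Col1a1* changed by 0.01 ± 0.38 (TMM). The sum of the 8 mesenchyme genes, *Col1a1* among them, was lower in macrophage-like than in other cells in 10 of 10 dKO sections with at least 5 such cells (medians 137 and 206 counts per 10000) and in 5 of 9 WT sections (medians 166.2 and 170.2). Their part in the result was not tested.

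With at least 5 cells a section, 36 genes were tested between 10 dKO and 9 WT sections, of which 3 were higher (8.33%) and 3 lower (8.33%) in dKO. *Hsp90ab1*, *Eno1/b* (a glycolytic enzyme) and *Fau* (a ribosomal protein) had log2 changes of 0.80, 0.85 and 0.85. Over all cells of the sections these genes changed by 1.28, 1.35 and 1.07, each past the threshold. *Col1a1*, *Ccl19* (a chemokine) and *Tpm1* (a tropomyosin) had -1.35, -0.82 and -0.77. Over all cells *Tpm1* changed by 0.59 and *Ccl19* by -0.26 (adjusted p = 0.0100 and 0.072, edgeR).

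The NR4A genes were sparse in these cells. *Nr4a1* gave 9 counts in 83 macrophage-like cells of dKO and 10 in 130 of WT, or 3.12 and 2.38 counts per 10000, against 2.24 and 2.85 in the other cells. *Nr4a2* gave 16 and 19 counts, or 5.55 and 4.52 per 10000, against 4.11 and 4.84 in the other cells. *Nr4a3*, the third member of the family, gave 15 and 10 counts, or 5.21 and 2.38 per 10000, against 3.66 and 5.02 in the other cells, so it was above the other cells in dKO and below them in WT (pooled, no test). Against the other cells of 10 sections, 8 of them WT, the log2 changes were -0.15 ± 0.48, -0.14 ± 0.39 and -1.39 ± 0.49, with adjusted p-values of 0.99, 0.99 and 0.25 in edgeR. None of the 3 genes was abundant enough in macrophage-like cells to be tested between the embryos.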

How the data were processed

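The genotype named in the labels placed 13 sections in dKO and 9 in WT; the study's text gives other section numbers for each genotype, and the labels were followed. The authors segmented cells and assigned transcripts in AtoMx, and the submitters' processing notes name Seurat. The deposited values are raw counts per gene and cell, not normalized, in 22 tables of 998 genes, with no negative control probes used here. A genome build is not given in the sources used here.

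The macrophage-like cells, the gene lists and the tests were chosen with earlier results of these data known. Cells under a total count of 50 (7222 of 37575) were left out, and no doublet caller was run. The expected number of cells is the sum over cells of the binomial probability of meeting the rule at the marker share of the section. The test for shares was an exact permutation of sections, two-sided. Rates of a left-out marker were compared by sign-flip permutation tests over sections, exact below 10 sections and otherwise with 100000 resamples.

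Counts were summed per section and class, and tested with edgeR 4.0.16 (robust quasi-likelihood, TMM, filterByExpr) and DESeq2 1.42.0 in R 4.3.3, with Benjamini-Hochberg adjustment over all genes tested. Sums with few cells hold few counts, which limits the genes that could be tested. On simulated counts 200 of 992 genes changed by 1 on the log2 scale. For macrophage-like against other cells edgeR called 140 of the 200 and 8 unchanged genes. For dKO against WT it called 11 of 26 tested and 0 unchanged genes. With changes of 2 on the log2 scale it called 198 of 200 and 39 of 39 tested, with 7 and 5 unchanged genes. The simulation gave every gene the same fixed dispersion, which real sums of few cells need not share. Named genes were the rule genes, the NR4A genes, genes of the macrophage and leukocyte lists past the threshold, the 10 largest rises and falls past the threshold with the same sign in both embryos, up to 4 genes of each other list by p-value, and genes past the threshold between embryos; other named genes are said to be chosen later or passed the threshold in 19 sections. Alternatives covered the limits of the rule, the scaling, the tool, the filter, the comparison cells, the block, the table number and leaving out sections. The other tools were Python 3.11.15, numpy 2.4.6, pandas 2.3.3, scipy 1.17.1 and matplotlib 3.10.9.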

Additional observations from a re-analysis of the deposited data

Results flagged for a closer look

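Some sections stood apart from the rest of their group by the gap between the extreme value and its neighbour, in 6 of 61 groups of values tested, where chance alone flags about 1 in 20. The marker genes made up 4.68 of every 1000 counts over all cells in WT section 17, above the other WT sections. Within macrophage-like cells, the summed NR4A genes reached 32.5 counts per 10000 in a dKO section, *Col4a2* 51.4 and *Cald1* 86.3 in a dKO section each, and *Igf2* 203 and *Col4a2* 66.4 in a WT section each.

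The difference between macrophage-like and other cells was unlike in the 2 embryos for a few genes, by an interaction term in edgeR chosen after the data were seen. In 10 sections *Col1a1* differed by -3.60 on the log2 scale (dKO minus WT, adjusted p = 1.7e-05), and 72 of 992 genes had an unadjusted p under 0.05. In 19 sections *Col1a1* (-1.34), *Sparc* (-1.54), *Tpm1* (-1.10) and *Serpinh1* (-0.75) differed, with adjusted p-values of 0.015, 0.0017, 0.0017 and 0.034 in edgeR. Each was lower in macrophage-like than in other cells in dKO, by 1.82, 1.77, 1.39 and 1.21, and by 0.52, 0.27, 0.33 and 0.49 in WT, where none passed the threshold.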

How the results depend on the processing

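The share of macrophage-like cells stayed lower in dKO under all 10 planned settings and kept its call in 8 of them. It lost the call with a summed count of at least 8 (-0.073 percentage points), with at least 25 per 1000 (-0.082) and with the share limit scaled by TMM (-0.201, chosen after seeing the data). Without 1 section at a time it ran from -0.703 to -0.492. No paired analysis was possible for dKO against WT because the sections come from different embryos. The observed over expected ratio became 12.3 at the marker rate of cells outside the rule and 6.51 for cells with at least 3 rule genes. The 6 left-out markers kept their direction and side of the threshold in all 3 settings.

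For macrophage-like against other cells, no gene was called higher with at least 3 rule genes, a fit that kept 5 sections, all WT, against near cells, in dKO sections alone or in tables numbered 2, while 4 were with 5 cells a section and 2 in dKO sections at that limit. The genes called lower numbered 3 with library size alone, 2 with DESeq2, 0 against near cells, 0 without the replicate block, 5 in dKO and 4 in WT sections alone, 3 in tables numbered 1, 0 in tables numbered 2, 30 with 5 cells a section, and 47 in dKO and 4 in WT at that limit. Where no gene was called lower, between 40 and 85 genes had an unadjusted p under 0.05. Leaving out a section gave 0 to 1 higher and 4 to 12 lower. Within macrophage-like cells, dKO against WT gave 0 lower with DESeq2 and in tables numbered 2, where 1 dKO section stood against 4 and the WT sections alone gave the spread, 3 higher and 3 lower with 5 cells a section, and 0 to 1 higher and 0 to 2 lower without a section; the fits with 20 cells a section or at least 3 rule genes had no dKO section and were not run. *Runx3* turned to -0.084 in dKO sections with 5 cells, *Cx3cr1* to -0.18 in tables numbered 2 and *Maf* to -0.50 in the 5 WT sections with at least 3 rule genes; the cause was not tested. Between the embryos the depth of macrophage-like cells let 106 of the genes be tested.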
